A study of Mus musculus with 10 samples.

Results

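Genes whose products act in the G2 phase and in mitosis were followed in 3T3-L1 cells that had received an siRNA against LSD1 (siLsd1) or a scrambled control siRNA (siC). The set is a list of 52 genes named for their part in cell division, and each was taken by its gene symbol in the platform annotation and represented by its brightest probe set over all arrays. Of the 52, 51 had a probe set named for them alone and 51 passed the filter on dim genes, among 13644 genes tested of 18193 with a named probe set; cyclin B1 (Ccnb1) was not analysed here. 3T3-L1 is an established mouse fibroblast line whose cells are preadipocytes, able to become fat cells when induced. LSD1, encoded by Kdm1a, is a demethylase of histones. Every dish was seeded, transfected with 60 nM siRNA by Metafectene Pro soon after and left in the same medium with 10% calf serum until RNA was taken. RNA came from cells of passage 19 at 24 h (2 arrays with siC and 2 with siLsd1) and from cells of passage 21 at 48 h (3 arrays with each), so that the hours since transfection and the passage cannot be told apart in any comparison of 48 h with 24 h. Transcripts were read on 10 Affymetrix arrays, each with RNA of 1 sample, as probe set intensities on a linear scale.

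Cells pass from DNA replication through G2 into mitosis, where cyclin-dependent kinase 1 (CDK1) with its A- and B-type cyclins sets off chromosome condensation, spindle assembly and, once every kinetochore is attached, the separation of sister chromatids. Most genes of this programme are transcribed in late S phase, G2 and mitosis and are kept low in resting cells. Their transcripts therefore serve as markers of dividing cells in bulk RNA. Preadipocytes in culture divide until they are confluent, and 3T3-L1 cells are usually brought to that state before they are induced to become fat cells.

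The promoters of such genes are known for a pair of short elements, the cell cycle genes homology region (CHR, TTTGAA), which binds the DREAM and MuvB complexes, and the CCAAT box (CCAAT), which binds NF-Y. RefSeq promoter windows of GRCm38.p6, 250 bases before to 50 after each gene's start, were found for 43 of the 52 genes. TTTGAA, read on both strands, was present in 32 of the 43 genes (74.4%), against 20.2% of the 27025 genes in the table. CCAAT, also on both strands, was present in 32 of the 43 (74.4%) against 41.1%, and both motifs were present in 27 (62.8%) against 8.97%. These are matches of letters and not measured binding, and a match of one motif can share at most 1 base with a match of the other. The 120 bases before the start are given 5′ to 3′ for 7 genes, 6 of which hold TTTGAA there and 1 of which (Melk) is shown for contrast, as a gene with neither motif. Capitals mark TTTGAA and CCAAT or their reverse complements, TTCAAA and ATTGG.
Cdk1 (chr10:69352913-69353032, minus strand): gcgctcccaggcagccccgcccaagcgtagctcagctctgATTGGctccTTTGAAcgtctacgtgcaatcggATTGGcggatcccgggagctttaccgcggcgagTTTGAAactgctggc
Ccnf (chr17:24251410-24251529, minus strand): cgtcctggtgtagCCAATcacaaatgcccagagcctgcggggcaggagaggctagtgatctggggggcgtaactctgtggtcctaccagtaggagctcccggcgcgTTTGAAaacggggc
Cdc20 (chr4:118437344-118437463, minus strand): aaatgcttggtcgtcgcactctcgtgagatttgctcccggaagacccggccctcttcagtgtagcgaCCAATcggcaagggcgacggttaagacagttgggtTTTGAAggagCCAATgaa
Kif11 (chr19:37376262-37376381, plus strand): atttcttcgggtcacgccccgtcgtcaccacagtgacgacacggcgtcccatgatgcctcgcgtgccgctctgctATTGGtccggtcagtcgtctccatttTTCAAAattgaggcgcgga
Top2a (chr11:99024190-99024309, minus strand): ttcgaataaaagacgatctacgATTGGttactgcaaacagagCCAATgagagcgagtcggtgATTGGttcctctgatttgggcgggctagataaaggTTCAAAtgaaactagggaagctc
Mki67 (chr7:135716380-135716499, minus strand): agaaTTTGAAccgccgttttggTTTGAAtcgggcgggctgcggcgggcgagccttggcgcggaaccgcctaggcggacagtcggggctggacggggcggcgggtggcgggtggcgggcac
Melk (chr4:44300797-44300916, plus strand): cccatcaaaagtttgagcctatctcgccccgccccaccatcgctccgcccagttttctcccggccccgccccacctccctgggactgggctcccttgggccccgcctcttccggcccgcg
In these windows TTTGAA began 15 bases before the start in Cdk1, 14 in Ccnf, 18 in Cdc20, 19 in Kif11 and 23 in Top2a, whereas the 2 matches in Mki67 lay 98 and 116 bases before it. Matches of CCAAT lay upstream of the element nearest the start in Cdk1, Ccnf, Kif11 and Top2a and on both sides of it in Cdc20. No CCAAT lay in the 120 bases of Mki67. Neither motif was in the whole windows of 6 of the 43 genes. Of these, Melk had a positive 24 h change with siLsd1 and Birc5, Nuf2, Nusap1, Plk4 and Pttg1 negative ones (−1.12 to −0.41), whereas Kif15, with the largest positive change (1.72), holds TTTGAA. The median 24 h change with siLsd1 was −0.83 over the 32 measured genes with TTTGAA in the whole window and −0.68 over the 10 without it.

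Array medians over all probe sets ran from 35.6 to 40.6, and the few arrays limit the precision. The median SE of the 51 genes' 24 h changes was 0.25 with all arrays and 0.16 with siLsd1 48 h replicate 3 left out. The targeted gene Kdm1a read 1559 and 1621 with siC and 1001 and 971 with siLsd1 at 24 h, and 1596, 1787 and 1775 with siC and 1352, 1336 and 897 with siLsd1 at 48 h, the last being replicate 3. It fell 1.61-fold at 24 h and 1.46-fold at 48 h (limma adjusted p 0.0473 and 0.0338), the latter 1.28-fold without replicate 3. That replicate 3 was unlike its group. Across 6943 brighter genes (mean log2 intensity 8 or more) the SD of its log2 difference from either replicate was 0.439 and 0.441, while other arrays of 1 group differed by 0.0892 to 0.205. It was nearer to the siLsd1 24 h arrays, with an SD of 0.353 and 0.361, than to its own replicates. Whether its label is right, or whether it came from another culture or time, was not tested. Its values are therefore given apart, and the 48 h values and the changes in time with siLsd1 are to be read with those without it. For the labelled cell type, 10 of 11 preadipocyte and fibroblast markers with a probe set were above the level taken as dim (a mean of 18.4). Their summed intensity was 72079.7 to 74420.1 with siC and 64078 to 64337 with siLsd1 at 24 h, and 73805 to 74747 and 54131 to 68911 at 48 h. At both times this sum was lower with siLsd1 without overlap. Of the mature adipocyte markers with a probe set, 3 of 6 were above that level. Lpl, a lipase, had a mean intensity of 9041, Fabp4, a fatty acid carrier, 3235 and Adipoq, adiponectin, 40.02, while Cidec, Lep and Retn were dim. Their sum was 12605 to 12718 with siC and 10250.02 to 10461 with siLsd1 at 24 h, and 13862 to 14429 and 11481 to 11790.3 at 48 h. It too was lower with siLsd1 without overlap at both times. Of the macrophage markers 5 of 6 were above the dim level, with means of 387 for Cd14, 185 for Lyz2, 115 for Adgre1, 103 for Csf1r and 35.4 for Cd68, and Ptprc was dim. The macrophage sum was 715 to 942 over all arrays. Of the endothelial and epithelial markers 2 of 5 (Kdr and Tek) and 2 of 5 (Krt8 and Krt19) were above it, at means of at most 47.7. The part of these markers in the results was not tested.

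The division genes were highest in control cells at 24 h, lower with siLsd1 at 24 h and lowest at 48 h with either siRNA. Expressed as the median over the 51 genes of the log2 difference from the siC 24 h mean, the siC 24 h arrays lay at 0.02 and −0.02 and the siLsd1 24 h arrays at −1.005 and −0.60. The siC 48 h arrays lay at −2.42, −2.25 and −2.25, siLsd1 48 h replicates 1 and 2 at −2.27 and −2.37, and replicate 3 at −1.70. In 46 of the 51 genes both siLsd1 24 h arrays lay below both siC 24 h arrays and above all 3 siC 48 h arrays, the others being Ccnf, Cdc25b, Melk, Kif15 and Smc4. That order of the arrays held for 3.71% of all genes tested. Fewer cells in division and less of these transcripts per dividing cell cannot be told apart in such bulk RNA.

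**Figure D1:**
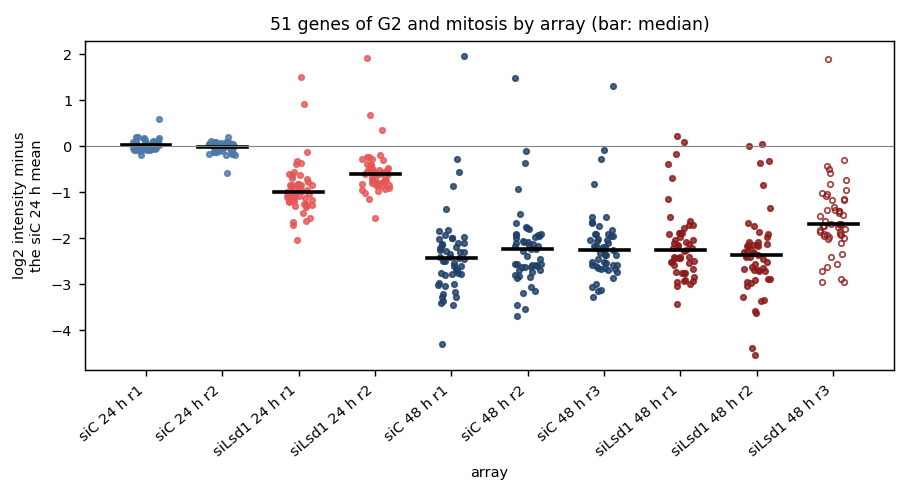
Each point is 1 of the 51 genes on 1 array, plotted as log2 intensity minus the mean of the siC 24 h arrays, with the array's median as a bar; siLsd1 48 h replicate 3 has open points. The siLsd1 24 h medians of −1.005 and −0.60 lie between the siC 24 h and the 48 h arrays, and replicate 3 of siLsd1 at 48 h, at −1.70, lies above its replicates.

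At 24 h, siLsd1 against siC, 10 of the 51 genes were called lower at a limma adjusted p under 0.05 and 0 higher, where 2.79% and 2.6% of all genes tested were called (5.39% in either direction). Centring each array on its median split the calls over all genes into 330 higher and 540 lower in place of 355 and 381. The 10 were Nek2, Cenpe, Cenpf, Kif11, Kif2c, Kif20b, Prc1, Nusap1, Racgap1 and Mki67, which fell 1.75- to 3.49-fold. The median log2 change was −0.81 over the 51 genes and −0.02 over all genes, and 37 of the 51 had an unadjusted p under 0.05 in the lower direction and 2 in the higher, where 13.1% and 9.4% of all genes had. In 48 genes both siLsd1 arrays lay below both siC arrays, and in 2 (Melk and Kif15) above, which held for 33.9% and 27.5% of all genes; Ccnf was the gene whose arrays overlapped. The calls turned on single arrays. With replicate 3 of siLsd1 at 48 h left out, an array outside both groups that enters the shared spread, 44 genes were called lower and 2 higher (against 15.3% and 10.1% of all genes, 25.5% in all). Leaving out siLsd1 48 h replicate 2 gave 16 calls, with 4.8% of all genes called. Dropping siC 48 h replicate 2 left 4 calls, where 2.62% of all genes were called. Dropping a 24 h array leaves a single array in its group, and fewer genes were then called, both among the 51 and among all genes. The median log2 change over the 51 genes was −0.79 and −0.84 without siC 24 h replicate 1 and 2. It was −0.60 and −1.005 without siLsd1 24 h replicate 1 and 2. Fitted to the 24 h arrays alone, limma called 47 lower and 2 higher, and 23.3% of all genes.

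At 48 h, siLsd1 against siC, 3 of the 51 genes were called higher (Melk, Ccnf and Tpx2) and 0 lower, against 6% and 6.67% of all genes tested. The median log2 change was 0.20 over the 51 genes and −0.02 over all genes, and it was −0.04 over the 51 genes without siLsd1 replicate 3, when 22 of the 51 changes took the other sign, 21 of them from positive to negative. The same centring split the calls over all genes at 48 h into 1043 higher and 756 lower in place of 818 and 910. With an unadjusted p under 0.05 there were 8 higher and 0 lower, while 14.1% and 17.6% of all genes passed, so that the higher share is near that of all genes. Without replicate 3 limma called 3 higher and 1 lower (Kif15), against 8.16% and 9.96% of all genes. Every siLsd1 48 h array lay above every siC 48 h array in 6 genes (Ccnf, Nek2, Melk, Bub1, Cenpe and Tpx2) and below in 1 (Mki67), which held for 16.6% and 20.9% of all genes. When siC 48 h replicate 1 or 3 was dropped, limma called 1 gene of the 51, Melk, where 3.58% and 4.1% of all genes were called.

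In control cells the division genes fell between 24 h and 48 h. Limma called 48 of the 51 lower and 0 higher, against 12.2% and 12% of all genes tested. Those 48 fell by a median of 5.19-fold, from 1.84-fold for Bub1b to 10.4-fold for Nuf2 (the folds of Ttk and Esco2, whose siC 48 h means were under the dim level, have no rank), and 40 of them fell over 4-fold. The genes not called were Cdc25b, Smc4 and Kif15. Leaving out siLsd1 48 h replicate 3 gave 49 lower and 1 higher, where 40.4% of all genes were called. The siC 48 h arrays all lay below the siC 24 h arrays in 50 genes and above them in 1, as in 26.9% and 28.7% of all genes. These are the siC 24 h arrays that also serve the 24 h comparison, so that the falls are not independent of each other. In siLsd1 cells 44 were called lower and 0 higher between the same times, against 7.13% and 7.25% of all genes, with a median of 2.55-fold among the 44, and 49 without replicate 3 (all but Cdc25b and Smc4, against 17.1%). The median log2 change over the 51 genes was −1.27, and −1.52 without replicate 3. In a fit to the siLsd1 arrays alone limma called 16 of the 51, where 2.54% of all genes were called. Without siLsd1 24 h replicate 1 or 2, which leaves a single array in that group, the median log2 change was −1.44 and −1.08. Fewer genes were then called, both among the 51 and among all genes. All but 1 of the 48 calls in control cells held when each array in turn was dropped, and 13 of the 44 in siLsd1 cells did. Centring each array on its median moved the median change of all genes in control cells from 0.01 to −0.13 and that of the 51 genes from −2.30 to −2.43. Among all genes the centred fit called 1053 higher and 2623 lower in place of 1640 and 1662 for control cells, and 760 higher and 1311 lower in place of 989 and 973 for siLsd1 cells.

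The 24 h and 48 h changes with siLsd1 were also compared directly. The 48 h change exceeded the 24 h change in 50 of the 51 genes, by a median of 1.04 on the log2 scale against 0.01 over all genes. Limma called 0 of the 51 for this difference (adjusted p 0.441 to 0.946) and 0 of all genes (0%), while 43 of the 51 had an unadjusted p under 0.05, 42 of them positive, where 3.55% of all genes had a positive and 3.01% a negative difference at that threshold. Without siLsd1 48 h replicate 3, 15 were called with a positive difference and 1 with a negative one, against 1.08% and 0.396% of all genes (1.47% together). The 15 were Ccna2, Plk1, Nek2, Melk, Bub1, Pttg1, Cenpa, Cenpe, Cenpf, Kif2c, Kif23, Tpx2, Nusap1, Racgap1 and Top2a, and the negative one was Kif15. For Cenpf the difference was 1.88 with all arrays (limma adjusted p 0.441) and 1.69 without replicate 3 (limma adjusted p 0.0310).

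**Figure D2:**
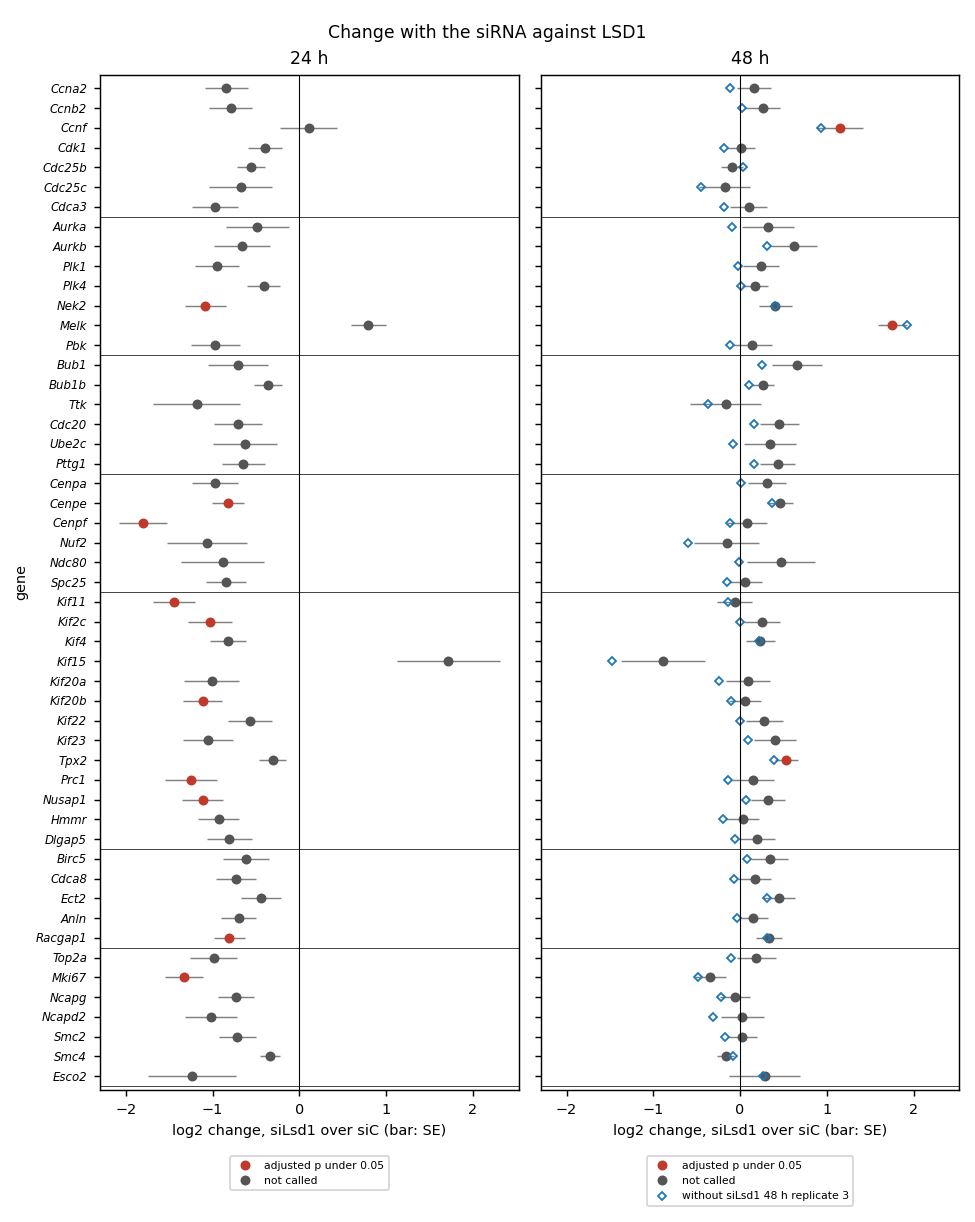
Points give the log2 change of each gene, siLsd1 over siC, at 24 h (left) and 48 h (right), with the SE as a bar and red for an adjusted p under 0.05; diamonds give the 48 h change without siLsd1 replicate 3. At 24 h 48 of 51 points lie left of 0, and at 48 h Melk, at 1.76, lies farthest to the right.

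Of the 7 measured genes for cyclins and entry into mitosis, 0 were called at 24 h, where 2.79% of all genes were called lower. In the lower direction 4 had an unadjusted p under 0.05, against 13.1% of all genes. Without siLsd1 48 h replicate 3 limma called 5 lower, against 15.3% of all genes. Between the times 6 fell in control cells and 6 in siLsd1 cells, each time all but Cdc25b. The shares of all genes called lower between the times were 12.2% and 7.13%. Cdk1, the kinase at the head of mitosis, read 2236 and 1899 with siC and 1402 and 1750.4 with siLsd1 at 24 h. At 48 h it read 802, 743 and 704 with siC, 671 and 647 on siLsd1 replicates 1 and 2, and 996 on siLsd1 replicate 3. Every 24 h array thus lay above every 48 h array, and the siC 48 h values fell between siLsd1 replicate 3 and the other 2. In control cells its mean fell from 2067 ± 239 (SD, n = 2) to 749.7 ± 49.1 (SD, n = 3), 2.75-fold (limma log2 change −1.46 with an SE of 0.18, adjusted p 0.000454), while its 24 h change with siLsd1 was −0.40 (SE 0.20, limma adjusted p 0.272). Ccna2, cyclin A2, read 1369 and 1329 with siC and 655 and 865 with siLsd1 at 24 h. At 48 h the Ccna2 readings were 220.2, 219 and 225 with siC, 201 and 209 on siLsd1 replicates 1 and 2, and 360.1 on siLsd1 replicate 3. The siC and siLsd1 24 h arrays did not overlap, yet the change was not called (limma log2 change −0.84 with an SE of 0.24, adjusted p 0.0762; 0.000325 without replicate 3). In control cells Ccna2 fell 6.09-fold by 48 h (limma log2 change −2.61 with an SE of 0.22, adjusted p 7.95e-05). Cdca3, which promotes the breakdown of a CDK1 inhibitor, had the largest 24 h difference of this group, 634 and 607 with siC and 275 and 362 with siLsd1 (limma log2 change −0.97 with an SE of 0.27, adjusted p 0.0631). Its 48 h readings were 134, 161 and 149.8 with siC, 142 and 120.01 on siLsd1 replicates 1 and 2, and 234 on siLsd1 replicate 3. Ccnb2, cyclin B2, and Cdc25c, a phosphatase that activates CDK1, had 24 h changes of −0.79 and −0.68 (limma adjusted p 0.0917 and 0.304), and in control cells they fell 4.47- and 3.36-fold by 48 h.

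Ccnf and Cdc25b, the members of this group with the smallest 24 h change and with no call in time, are given in full. Ccnf, cyclin F, which marks proteins for breakdown, read 129.6 and 114 with siC and 110.5 and 156 with siLsd1 at 24 h, so that the groups overlapped. At 48 h it read 20.1, 38.3 and 25.4 with siC, 55.03 and 47.9 on siLsd1 replicates 1 and 2, and 81.00 on siLsd1 replicate 3, and every siLsd1 array lay above every siC array. It was called higher with siLsd1 at 48 h, where its mean rose from 27.9 ± 9.37 to 61.3 ± 17.4 (SD, n = 3), 2.22-fold (limma log2 change 1.15 with an SE of 0.27, adjusted p 0.0267), and 1.91-fold without replicate 3 (limma adjusted p 0.0273). Between the times Ccnf fell 4.52-fold in control cells and 2.20-fold in siLsd1 cells (2.56-fold without replicate 3). Cdc25b, another phosphatase that activates CDK1, read 264 and 306 with siC and 184 and 203 with siLsd1 at 24 h. Cdc25b read 193, 221 and 234 with siC, 218 and 221 on siLsd1 replicates 1 and 2, and 171 on siLsd1 replicate 3 at 48 h. The siC and siLsd1 arrays were apart at 24 h and overlapped at 48 h, and its change in control cells was −0.40 (SE 0.14, limma adjusted p 0.0702; 0.0106 without replicate 3).

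Among the 7 mitotic kinase genes, 1 (Nek2) was called lower and 0 higher at 24 h, against 2.79% and 2.6% of all genes. Without siLsd1 48 h replicate 3 limma called 6 lower and 1 (Melk) higher, against 15.3% and 10.1% of all genes. All 7 fell between the times in control cells and all 7 in siLsd1 cells. The shares of all genes called lower there were 12.2% and 7.13%. Nek2, a kinase that separates the centrosomes, read 243 and 273 with siC and 103 and 144 with siLsd1 at 24 h. Its mean fell from 258 ± 21.3 to 123 ± 29.1 (SD, n = 2), 2.12-fold (limma log2 change −1.08 with an SE of 0.24, adjusted p 0.0297). At 48 h Nek2 read 28.4, 43.3 and 44.01 with siC, 47.97 and 52.2 on siLsd1 replicates 1 and 2, and 50.6 on siLsd1 replicate 3, with every siLsd1 array above every siC array and a change that was not called (limma log2 change 0.41 with an SE of 0.19, adjusted p 0.177; log2 change 0.40 without replicate 3). Plk1, Polo-like kinase 1, which acts on centrosomes, kinetochores and the cleavage furrow, read 363 and 318 with siC and 158 and 195 with siLsd1 at 24 h, without overlap (limma log2 change −0.95 with an SE of 0.25, adjusted p 0.0576). At 48 h the Plk1 arrays overlapped, with 63.4, 55.7 and 65.5 with siC, 59.1 and 62.1 on siLsd1 replicates 1 and 2, and 105 on siLsd1 replicate 3. In control cells Plk1 fell 5.53-fold (limma log2 change −2.47 with an SE of 0.23, adjusted p 0.000113). Aurka, the Aurora kinase of the spindle poles, read 418 and 339 with siC and 233 and 309.7 with siLsd1 at 24 h. Aurka read 96.2, 77.2 and 89.5 with siC, 81.4 and 82.03 on siLsd1 replicates 1 and 2, and 195 on siLsd1 replicate 3 at 48 h. Its siLsd1 48 h replicate 3 exceeded every other 48 h array of the gene. Aurkb, the Aurora kinase of the chromosomal passenger complex, read 313 and 296 with siC and 169.6 and 218 with siLsd1 at 24 h. Aurkb read 27.8, 43.4 and 34.9 with siC, 45.2 and 40.95 on siLsd1 replicates 1 and 2, and 82.8 on siLsd1 replicate 3 at 48 h. Of the 2, Aurkb had the larger fall in control cells, 8.74-fold against 4.31-fold (log2 changes −3.13 and −2.11, limma adjusted p 0.000113 and 0.00177), a difference that was not tested. Plk4, which starts centriole duplication, had the smallest 24 h change of the kinases, 642 and 682 with siC and 425 and 582 with siLsd1 (limma log2 change −0.41 with an SE of 0.19, adjusted p 0.223). Plk4 read 164, 177 and 175 with siC, 179 and 169 on siLsd1 replicates 1 and 2, and 239.6 on siLsd1 replicate 3 at 48 h. Pbk, a kinase that is active in mitosis, had a 24 h change of −0.97 (limma adjusted p 0.0755) and fell 9.19-fold in control cells and 4.25-fold in siLsd1 cells (5.07-fold without replicate 3) between the times.

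Melk, a kinase gene of dividing cells, had a positive change with siLsd1 at both times, unlike the other 6 kinases at 24 h. It read 1039.5 and 1366 with siC and 2242 and 1902 with siLsd1 at 24 h. At 48 h it read 296, 317 and 379 with siC, 1266 and 1232 on siLsd1 replicates 1 and 2, and 878 on siLsd1 replicate 3. The siLsd1 arrays lay above the siC arrays at both times, and replicate 3 was the lowest of the siLsd1 48 h arrays. The 24 h change was not called (limma log2 change 0.79 with an SE of 0.20, adjusted p 0.0503; 0.00184 without replicate 3). At 48 h the mean rose from 331 ± 43.3 to 1125 ± 215 (SD, n = 3), 3.38-fold (limma log2 change 1.76 with an SE of 0.16, adjusted p 0.000324) and a log2 change of 1.93 without replicate 3, the 1 call of the 3 at 48 h that held when each array in turn was dropped. Melk did fall with time like the other kinases, 3.62-fold in control cells (limma log2 change −1.86 with an SE of 0.18, adjusted p 0.000142) and 1.86-fold in siLsd1 cells (limma log2 change −0.90 with an SE of 0.18, adjusted p 0.0114; 1.65-fold without replicate 3). It was measured by a single probe set.

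Of the 6 genes of the spindle checkpoint and of anaphase, 0 were called at 24 h, where 2.79% of all genes were called lower. At an unadjusted p under 0.05, 4 were lower, against 13.1% of all genes. Without siLsd1 48 h replicate 3, 5 were called lower, against 15.3% of all genes. Between the times 6 fell in control cells and 4 in siLsd1 cells, against 12.2% and 7.13% of all genes called lower. Bub1, a kinase of the checkpoint, read 663 and 678 with siC and 359 and 469.8 with siLsd1 at 24 h (limma log2 change −0.71 with an SE of 0.35, adjusted p 0.265). At 48 h Bub1 read 69.5, 72.9 and 83.5 with siC, 88.9 and 89.3 on siLsd1 replicates 1 and 2, and 208 on siLsd1 replicate 3. All siLsd1 48 h arrays of Bub1 were above all siC 48 h arrays, with replicate 3 far above its replicates, and the change was not called (limma log2 change 0.66 with an SE of 0.28, adjusted p 0.144; log2 change 0.25 without replicate 3). In control cells its mean fell from 671 ± 10.7 (SD, n = 2) to 75.3 ± 7.29 (SD, n = 3), 8.94-fold (limma log2 change −3.16 with an SE of 0.32, adjusted p 0.000150). Cdc20, which activates the ubiquitin ligase that starts anaphase, read 1621 and 1724 with siC and 938 and 1121 with siLsd1 at 24 h. Cdc20 read 304, 399 and 405 with siC, 448 and 374 on siLsd1 replicates 1 and 2, and 752 on siLsd1 replicate 3 at 48 h. It fell 4.57-fold in control cells and 2.04-fold in siLsd1 cells between the times (limma log2 change −2.19 with an SE of 0.25, adjusted p 0.000313, and limma log2 change −1.03 with an SE of 0.25, adjusted p 0.0230), the latter 2.50-fold without replicate 3. Ttk, the kinase that recruits the checkpoint proteins, had the largest 24 h change of this group, 185 and 139.9 with siC and 58.9 and 85.01 with siLsd1 (limma log2 change −1.18 with an SE of 0.50, adjusted p 0.194), and at 48 h it read 16.5, 13.8 and 23.97 with siC, 24.1 and 7.73 on siLsd1 replicates 1 and 2, and 20.7 on siLsd1 replicate 3, near the level taken as dim. Bub1b, which encodes the checkpoint protein BubR1, had the smallest, 396 and 364 with siC and 301 and 291 with siLsd1 (limma log2 change −0.36 with an SE of 0.16, adjusted p 0.219). Bub1b read 207, 200.2 and 213 with siC, 235 and 211 on siLsd1 replicates 1 and 2, and 308 on siLsd1 replicate 3 at 48 h. Bub1b fell 1.84-fold in control cells by this probe set, while another, of mean intensity 198, had a log2 change of −2.15 there. At 24 h that other probe set had −0.90 with siLsd1, and a faint one, of mean intensity 22.4, had 0.08. Ube2c, the ubiquitin-conjugating enzyme of the same ligase, and Pttg1, securin, which holds the cohesin-cleaving protease in check, had 24 h changes of −0.63 and −0.65 (limma adjusted p 0.358 and 0.159).

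Of the 6 centromere and kinetochore genes, 2 were called lower at 24 h, Cenpf and Cenpe, and 6 without siLsd1 48 h replicate 3. The shares of all genes called lower were 2.79% and 15.3%. All 6 fell between the times in control cells, and 5 did in siLsd1 cells, against 12.2% and 7.13% of all genes called lower. Cenpf, a large protein of the outer kinetochore, read 210.4 and 203 with siC and 50.1 and 70.2 with siLsd1 at 24 h. Its mean fell from 207 ± 4.96 to 60.1 ± 14.3 (SD, n = 2), 3.49-fold (limma log2 change −1.80 with an SE of 0.28, adjusted p 0.00806), the largest 24 h fall among the 51 genes. At 48 h Cenpf read 24.96, 24.7 and 36.2 with siC, 25.8 and 26.4 on siLsd1 replicates 1 and 2, and 38.8 on siLsd1 replicate 3, and the groups overlapped. Cenpe, a kinesin of the kinetochore, had the smallest 24 h difference of the group, 343 and 363 with siC and 165 and 242 with siLsd1 (limma log2 change −0.82 with an SE of 0.18, adjusted p 0.0334). At 48 h it read 54.4, 54.6 and 59.2 with siC, 73.4 and 71.1 on siLsd1 replicates 1 and 2, and 87.8 on siLsd1 replicate 3, each siLsd1 array above each siC array (limma log2 change 0.46 with an SE of 0.15, adjusted p 0.0682; log2 change 0.37 without replicate 3). Cenpa, the histone H3 variant of centromeres, read 585 and 508 with siC and 248 and 312 with siLsd1 at 24 h. Cenpa read 123, 137 and 127 with siC, 133 and 128 on siLsd1 replicates 1 and 2, and 240.3 on siLsd1 replicate 3 at 48 h. Its siLsd1 48 h replicate 3 lay just under the lower siLsd1 24 h array and above all other 48 h arrays. Ndc80, Nuf2 and Spc25 encode 3 of the subunits of the complex that binds microtubules at the kinetochore. Ndc80 read 263 and 209 with siC and 111 and 145 with siLsd1 at 24 h (limma log2 change −0.88 with an SE of 0.48, adjusted p 0.308). Ndc80 read 29.6, 18.2 and 26.4 with siC, 30.5 and 18.9 on siLsd1 replicates 1 and 2, and 65.9 on siLsd1 replicate 3 at 48 h. In control cells it fell 9.67-fold, Nuf2 10.4-fold and Spc25 5.34-fold (limma adjusted p 0.000660, 0.000482 and 8.08e-05). The 24 h changes of Nuf2 and Spc25 were −1.06 and −0.85 (limma adjusted p 0.209 and 0.0632). Each of Ndc80 and Nuf2 had 1 value at 48 h under the level taken as dim.

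The 13 genes of kinesins and other spindle proteins held 5 of the 10 calls at 24 h: Kif11, Kif2c, Kif20b, Prc1 and Nusap1. All 5 were lower, where 2.79% of all genes were called lower. Without siLsd1 48 h replicate 3, 12 were called lower and 1, Kif15, higher, against 15.3% and 10.1% of all genes. In control cells 12 fell between the times and in siLsd1 cells 12, each time all but Kif15. Over all genes 12.2% and 7.13% were called lower there. Kif11, the motor that pushes the spindle poles apart, read 317 and 318 with siC and 95.9 and 142 with siLsd1 at 24 h. The Kif11 mean fell from 317 ± 0.714 to 119 ± 32.7 (SD, n = 2), 2.72-fold (limma log2 change −1.44 with an SE of 0.24, adjusted p 0.0104). Its 48 h values were 34.04, 43.7 and 43.7 with siC, 43.9 and 30.5 on siLsd1 replicates 1 and 2, and 42.5 on siLsd1 replicate 3, so that replicate 3 did not stand out. Prc1, which bundles the microtubules of the spindle midzone, read 562 and 496 with siC and 179 and 274 with siLsd1 at 24 h. Prc1 read 64.6, 73.9 and 81.2 with siC, 67.96 and 64.2 on siLsd1 replicates 1 and 2, and 122 on siLsd1 replicate 3 at 48 h. At 24 h Prc1 fell 2.38-fold with siLsd1 (limma log2 change −1.25 with an SE of 0.30, adjusted p 0.0411), and in control cells it fell 7.24-fold by 48 h (limma log2 change −2.86 with an SE of 0.27, adjusted p 0.000121). Kif2c, a kinesin that shortens microtubules, Kif20b, a kinesin of the midzone, and Nusap1, a microtubule-binding protein, fell 2.04-, 2.17- and 2.17-fold at 24 h (limma adjusted p 0.0448, 0.0221 and 0.0271). Kif20a and Kif23, motors of the midzone and of cytokinesis, had changes of −1.01 and −1.05 at 24 h that were not called (limma adjusted p 0.0931 and 0.0679). Kif4 and Kif22, motors that ride on chromosomes, had 24 h changes of −0.82 and −0.57, and Hmmr and Dlgap5, spindle assembly proteins, had changes of −0.93 and −0.81 (limma adjusted p 0.0502, 0.225, 0.0507 and 0.101). In control cells these 6 fell 4.29-fold (Kif20a), 6.28-fold (Kif23), 4.67-fold (Kif4), 4.08-fold (Kif22), 3.94-fold (Hmmr) and 5.45-fold (Dlgap5) by 48 h.

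Tpx2 and Kif15 had the smallest and the largest 24 h change of the spindle genes, and that of Kif15 was positive. Tpx2, which activates Aurora A on the spindle, read 474 and 489 with siC and 371 and 408 with siLsd1 at 24 h (limma log2 change −0.31 with an SE of 0.16, adjusted p 0.284). At 48 h it read 97.4, 111 and 103 with siC, 141 and 132 on siLsd1 replicates 1 and 2, and 183 on siLsd1 replicate 3, with no overlap, and its mean rose from 104 ± 6.66 to 152 ± 27.3 (SD, n = 3), 1.45-fold (limma log2 change 0.53 with an SE of 0.13, adjusted p 0.0288), and 1.31-fold without replicate 3 (limma adjusted p 0.0129). Kif15, another motor of the spindle, was faint, with 25.9 and 11.4 with siC and 49.00 and 65.3 with siLsd1 at 24 h. Kif15 read 67.2, 48.2 and 42.4 with siC, 19.9 and 17.2 on siLsd1 replicates 1 and 2, and 63.5 on siLsd1 replicate 3 at 48 h. It was the 1 gene of the 51 whose siC 48 h arrays all lay above its siC 24 h arrays (limma log2 change 1.59 with an SE of 0.54, adjusted p 0.0574). Its siLsd1 48 h replicate 3 lay between the siLsd1 24 h arrays, while replicates 1 and 2 were below every siC 48 h array. The 48 h change was −0.89 with all arrays (SE 0.48, limma adjusted p 0.236) and −1.48 without replicate 3 (limma adjusted p 0.0132).

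Of the 5 genes of the passenger complex and of cytokinesis, 1 (Racgap1) was called lower at 24 h and 4 without siLsd1 48 h replicate 3, all but Ect2. The shares of all genes called lower were 2.79% and 15.3%. All 5 fell between the times with either siRNA, against 12.2% (siC) and 7.13% (siLsd1) of all genes called lower. Racgap1, which with Kif23 forms the centralspindlin complex, read 581 and 648 with siC and 319 and 386 with siLsd1 at 24 h. Its mean fell from 615 ± 47.2 to 352 ± 47.4 (SD, n = 2), 1.75-fold (limma log2 change −0.81 with an SE of 0.18, adjusted p 0.0337). At 48 h Racgap1 read 115, 142 and 173 with siC, 187 and 164 on siLsd1 replicates 1 and 2, and 184 on siLsd1 replicate 3, and the groups overlapped. Birc5, survivin, a subunit of the passenger complex, read 1271 and 1420.3 with siC and 761 and 1014 with siLsd1 at 24 h (limma log2 change −0.61 with an SE of 0.26, adjusted p 0.206). Birc5 read 168, 201 and 214 with siC, 229.7 and 182 on siLsd1 replicates 1 and 2, and 351 on siLsd1 replicate 3 at 48 h. It fell 6.96-fold in control cells (limma log2 change −2.80 with an SE of 0.24, adjusted p 8.08e-05). Anln, the actin-binding protein anillin of the cleavage furrow, read 1205 and 1275 with siC and 695 and 839 with siLsd1 at 24 h (limma log2 change −0.70 with an SE of 0.20, adjusted p 0.0745). Anln read 256, 315 and 329 with siC, 303 and 279.6 on siLsd1 replicates 1 and 2, and 431 on siLsd1 replicate 3 at 48 h. Both genes had non-overlapping siC and siLsd1 arrays at 24 h and overlapping ones at 48 h. Ect2, which switches on RhoA at the furrow, had the smallest 24 h change here, 409 and 437 with siC and 276 and 349 with siLsd1 (limma log2 change −0.45 with an SE of 0.23, adjusted p 0.289). Ect2 read 60.5, 98.99 and 82.5 with siC, 97.5 and 99.2 on siLsd1 replicates 1 and 2, and 130.4 on siLsd1 replicate 3 at 48 h. Cdca8, borealin of the passenger complex, had a 24 h change of −0.73 (limma adjusted p 0.0996) and fell 5.27-fold in control cells.

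Of the 7 genes of chromosome structure, 1 (Mki67) was called lower at 24 h and 6 without siLsd1 48 h replicate 3, all but Esco2. The shares of all genes called lower were 2.79% and 15.3%. Between the times 6 fell in control cells, all but Smc4, and 5 in siLsd1 cells, against 12.2% and 7.13% of all genes called lower. Mki67, the proliferation marker that coats mitotic chromosomes, read 712 and 729 with siC and 234 and 353 with siLsd1 at 24 h. At 48 h it read 113, 116 and 112 with siC, 94.3 and 70.4 on siLsd1 replicates 1 and 2, and 109 on siLsd1 replicate 3, and it was the 1 gene of the 51 with every siLsd1 48 h array below every siC 48 h array, a change that was not called (limma log2 change −0.34 with an SE of 0.18, adjusted p 0.218; 0.0659 without replicate 3). In control cells it fell 6.32-fold (limma log2 change −2.66 with an SE of 0.20, adjusted p 5.02e-05). Top2a, the topoisomerase that untangles chromosomes, read 2197 and 2140.04 with siC and 946 and 1266 with siLsd1 at 24 h. The 48 h arrays of Top2a read 323, 333 and 344 with siC, 341 and 280.1 on siLsd1 replicates 1 and 2, and 574 on siLsd1 replicate 3. The 24 h groups did not overlap (limma log2 change −0.99 with an SE of 0.27, adjusted p 0.0641; 0.000271 without replicate 3), and its mean fell in control cells from 2169 ± 40.6 (SD, n = 2) to 333 ± 10.7 (SD, n = 3), 6.51-fold (limma log2 change −2.70 with an SE of 0.25, adjusted p 0.000102).

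Smc2 and Smc4 form the core of condensin. Smc2 read 1238 and 1375 with siC and 725 and 874 with siLsd1 at 24 h. Smc2 read 256, 307 and 347 with siC, 282 and 253 on siLsd1 replicates 1 and 2, and 398 on siLsd1 replicate 3 at 48 h. It fell 4.34-fold in control cells (limma log2 change −2.12 with an SE of 0.19, adjusted p 0.000102). Smc4 read 1446 and 1568 with siC and 1153 and 1224 with siLsd1 at 24 h. Smc4 read 1232, 1393 and 1411 with siC, 1334 and 1209 on siLsd1 replicates 1 and 2, and 1065 on siLsd1 replicate 3 at 48 h. Its log2 change in control cells was −0.17 (SE 0.11, limma adjusted p 0.301). The other probe sets of Smc4, of mean intensity 749 and 323, had changes there of −0.51 and −0.42, and the difference between Smc2 and Smc4 was not tested. Ncapg and Ncapd2, the other condensin subunits of the set, had 24 h changes of −0.73 and −1.02 (limma adjusted p 0.0751 and 0.0777) and fell 4.91- and 3.48-fold in control cells. Esco2, which acetylates cohesin in S phase, had a 24 h change of −1.24 (limma adjusted p 0.181) and fell 9.72-fold in control cells (limma adjusted p 0.000886), though 5 of its 6 values at 48 h were under the level taken as dim.

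**Figure D3:**
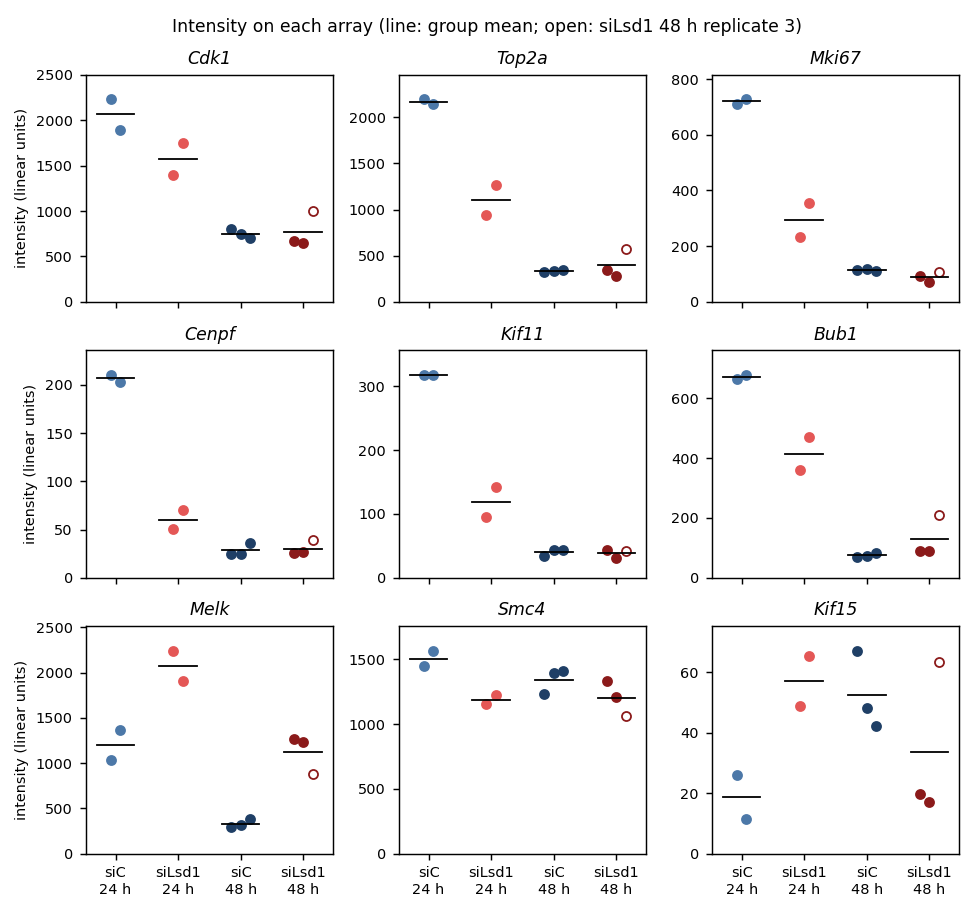
Points give the intensity of 9 genes on each array by group, on linear axes from 0, with the group mean as a line and siLsd1 48 h replicate 3 as an open point. Cdk1, Top2a, Mki67, Cenpf, Kif11 and Bub1 step down from siC 24 h to siLsd1 24 h to 48 h, whereas Melk is higher with siLsd1 at both times, Smc4 stays between 1065 and 1568, and Kif15 is faint on every array.

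SiLsd1 48 h replicate 3 read higher than both of its replicates in 42 of the 51 genes, between them in 6 and lower in 3, while it was above both in 39.5% of all genes tested. The median log2 difference from the mean of its replicates was 0.73 over the 51 genes (1.65-fold) and −0.04 over all genes. It lay above every siC 48 h array in 44 of the 51, where 35.9% of all genes did. Replicates 1 and 2 did so in 22 and 7 of the 51 and in 31.1% and 28.3% of all genes. It lay below both siLsd1 24 h arrays in 48 of the 51 and in 42.7% of all genes. Aurka, Bub1 and Ube2c were among the genes higher on it, with 195, 208 and 653 against 81.4 and 82.03, 88.9 and 89.3, and 297 and 246. Melk, Smc4 and Cdc25b were lower on it than on either replicate. The same array had the lowest Kdm1a intensity and the lowest summed preadipocyte and fibroblast markers of the siLsd1 48 h group; their part in its division genes was not tested.

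**Figure D4:**
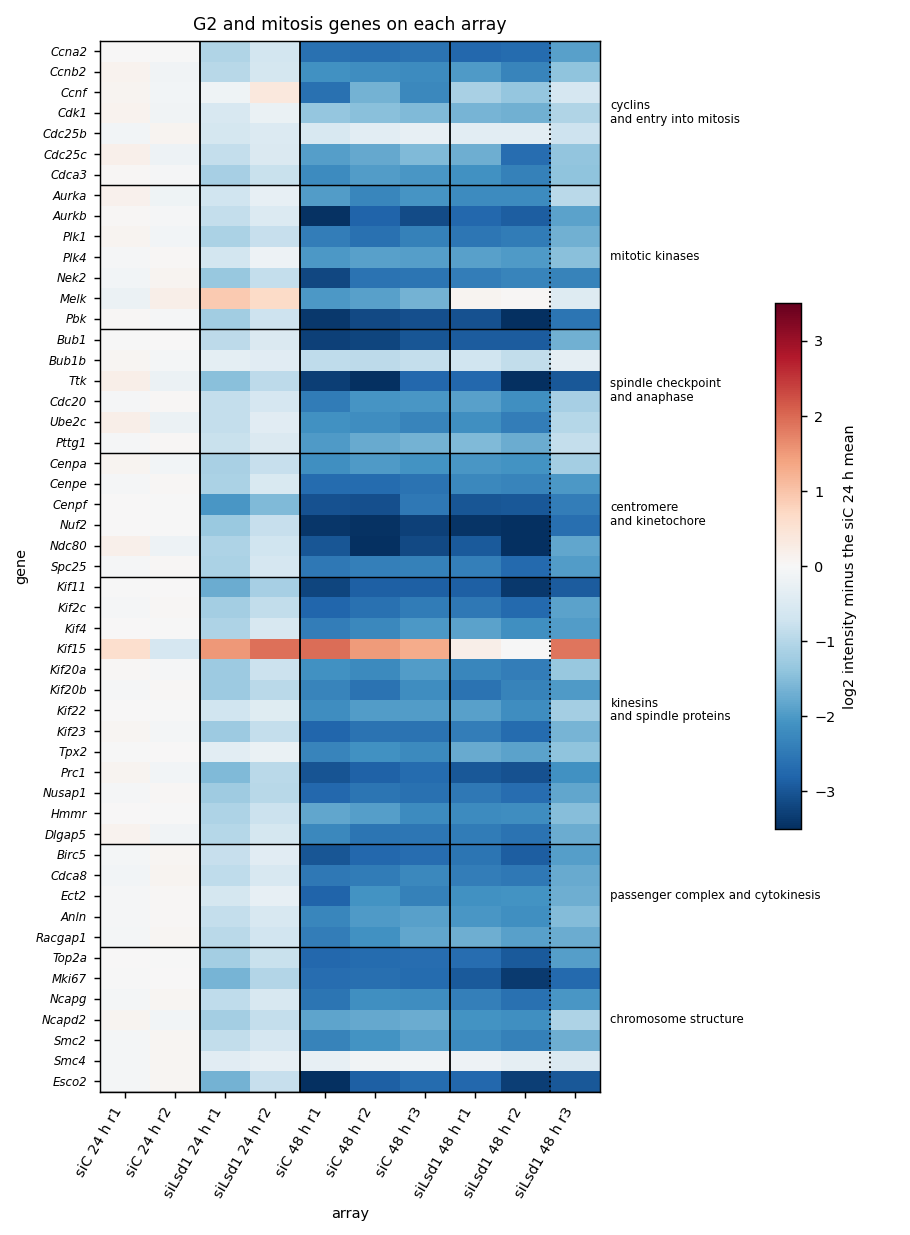
Rows are the 51 genes by role and columns the 10 arrays, coloured by log2 intensity minus the siC 24 h mean; solid lines part the groups and a dotted line sets off siLsd1 48 h replicate 3. Blue deepens from siLsd1 24 h to 48 h in most rows, and the paler last column is replicate 3, which exceeded both of its replicates in 42 genes.

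Other probe sets of the same genes bear on these values. For 36 of the 51 genes 64 further probe sets were present, 47 of them above the dim level by their own mean. Among these 47, the sign was opposite to that of the gene's brightest probe set in 6 at 24 h, 14 at 48 h, 5 for time in control cells and 7 for time in siLsd1 cells. Another probe set of Kif11 had a log2 change of −1.25 at 24 h and one of Prc1 −1.17, whereas a further one of Kif11 had −0.13. One of Ccna2 had −0.45, and dimmer ones of Cenpf had −0.37 and 0.22. Among other genes called at 24 h, probe sets above the dim level had −0.62, −0.24 and 0.16 for Kif2c and −0.97, −0.18 and −0.14 for Nek2. Those of Nusap1, Cenpe and Racgap1 had −0.16, −0.35 and −0.55. At 48 h a further probe set of Tpx2, a gene called higher there, had 0.11. With all probe sets of a gene averaged in place of the brightest, limma called 2 of the 49 genes then tested at 24 h and 44 for time in control cells. Of all genes 3.13% and 19.7% were then called.

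A wider list of 104 further tested genes of G2, mitosis, kinetochore, cohesin and the anaphase ubiquitin ligase was also counted. At 24 h 10 were called lower and 0 higher, with a median log2 change of −0.32, against 2.79% and 2.6% of all genes. Without siLsd1 48 h replicate 3 the counts were 43 and 1, against 15.3% and 10.1% of all genes. At 48 h 7 were lower and 1 higher, with a median of 0.09, against 6.67% and 6% of all genes: the lower share is near that of all genes and the higher one below it. Without that replicate the 48 h counts were 16 and 3, against 9.96% and 8.16% of all genes. The largest 24 h falls were of Aspm, a spindle pole protein (2.40-fold), Sgo2a, shugoshin, which protects cohesin (2.25-fold), Stmn1, which destabilises microtubules (2.11-fold), and Stag1, a cohesin subunit (1.73-fold; limma adjusted p 0.0276, 0.0143, 0.00614 and 0.0330). At 48 h Cenpp, Stag1 and Kif3a, a kinesin of cilia and transport, fell 1.62-, 1.57- and 1.40-fold and Cenpq rose 1.62-fold (limma adjusted p 0.0395, 0.0224, 0.00691 and 0.0351). The 48 h log2 changes of Cenpp, Stag1, Kif3a and Cenpq were −0.70, −0.65, −0.49 and 0.70 with all arrays. Without siLsd1 replicate 3 they were −0.69, −0.45, −0.46 and 0.46. Between the times 73 fell and 2 rose in control cells, and 54 fell and 2 rose in siLsd1 cells, where 12.2% and 12%, and 7.13% and 7.25%, of all genes did.

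Of 18 tested genes for regulators of this programme, 1 was called lower at 24 h, Tfdp1, a partner of E2F factors (1.43-fold, limma adjusted p 0.00763), and 1 higher, the CDK inhibitor gene Cdkn1a (1.26-fold, limma adjusted p 0.0291). Of all genes 2.79% were called lower and 2.6% higher at 24 h. At 48 h 3 were called higher, Rbl1, the pocket protein p107 (1.64-fold), E2f5, a repressive E2F (1.41-fold), and Cdkn1a (1.16-fold; limma adjusted p 0.00268, 0.0444 and 0.0400), and 0 lower, where 6% and 6.67% of all genes were called. The 48 h log2 changes of Rbl1, E2f5 and Cdkn1a were 0.71, 0.49 and 0.22 with all arrays. Without siLsd1 replicate 3 they were 0.75, 0.33 and 0.17. Foxm1, a transcription factor that drives G2 and mitosis genes, had log2 changes of −0.21 at 24 h and 0.04 at 48 h (limma adjusted p 0.625 and 0.895) and fell 1.80-fold in control cells between the times (limma adjusted p 0.0132). Mybl2, which acts with MuvB on such genes, had changes of 0.64 and 0.56 at the 2 times (limma adjusted p 0.160 and 0.0930) and of −0.59 in control cells (limma adjusted p 0.0836).

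Among 55 tested genes of DNA replication and S phase, 4 were called lower and 0 higher at 24 h, against 2.79% and 2.6% of all genes. The median log2 change was −0.27, against −0.81 for the G2 and mitosis genes. Without siLsd1 48 h replicate 3 limma called 20 lower and 0 higher, against 15.3% and 10.1% of all genes. The 4 called with all arrays were Timeless, of the replication fork, Pola1 and Pold1, DNA polymerase subunits, and Lig1, a DNA ligase. They fell 2.74-, 1.60-, 1.44- and 1.51-fold (limma adjusted p 0.00473, 0.0246, 0.0221 and 0.0170). At 48 h Dbf4, which activates the kinase Cdc7, rose 1.90-fold, and Timeless and Cdc7 fell 1.67- and 1.37-fold (limma adjusted p 0.0316, 0.0197 and 0.0499; 0.0606 for Cdc7 without siLsd1 replicate 3). That is 1 higher and 2 lower of 55, shares below the 6% and 6.67% of all genes. The 48 h log2 changes of Dbf4, Timeless and Cdc7 were 0.93, −0.74 and −0.45 with all arrays. Without siLsd1 replicate 3 they were 0.62, −0.64 and −0.40. In control cells 49 of the 55 fell between the times (12.2% of all genes), with a median of −1.29 against −2.30 for the G2 and mitosis genes. The difference between the lists was not tested.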

How the data were processed

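The authors deposited linear intensity values for each probe set of 10 Affymetrix arrays, hybridised with 1 biotin-labelled sample each, per the labels' protocols. Probe set summary and array normalization are not given in the sources used here. No constant was added before the log2, since 0 values were at or below 0. Probe sets with 1 gene symbol in the platform annotation (34945 of 45037) were used, and the brightest over all arrays stood for each gene. Genes in the lowest 25% of mean log2 intensity (up to 18.4) were left out as dim; all 51 members with a probe set passed, 12 of their 510 single values being under that level.

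Group means (4 groups) were fitted with limma 3.58.1 in R 4.3.3 (lmFit, eBayes with an intensity trend, residual df 6), giving 5 comparisons. P-values were adjusted over all 13644 genes within a comparison (Benjamini-Hochberg), two-sided, and called under 0.05. The replicates are biological by the labels. Comparisons that share a control group are not independent. The fit was tested on simulated data. Values on every array are given for 16 genes set by name (a seventeenth, Ccnb1, was not analysed here), for the members with the largest and the smallest 24 h change in each role group, and for Melk and Cdc25b, which were chosen after their values were seen; from the other lists, up to 4 called genes with the largest change with siLsd1 are named, and Foxm1 and Mybl2. The windows shown were chosen after the motif matches were seen. The members and lists were chosen with earlier results of these data known. Promoters come from RefSeq (GRCm38.p6), figures from matplotlib 3.10.9. Alternatives were averaged probe sets, 2 other filters on dim genes, 2 normalizations, low intensities raised, no trend, array weights, only the arrays compared, a replicate block and each array left out.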

Additional observations from a re-analysis of the deposited data

How the results depend on the processing

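Each count of called G2 and mitosis genes is given for the settings that moved it by more than 1.5 times; the cause of a change was not tested. At 24 h (10 called) it was 2 with a gene's probe sets averaged, 5 with no intensity trend, 44 with array weights, which gave siLsd1 48 h replicate 3 a weight of 0.0948, and 49 with only the arrays compared; the share of all genes called was then 3.13%, 2.95%, 26.2% and 23.3%, against 5.39% as reported. At 48 h (3 called) it was 1, 9 and 1 with the mean of probe sets, array weights and only the arrays compared, and 6.95%, 36.1% and 1.83% of all genes were (in place of 12.7%). For time in siLsd1 cells (44 called) it was 29 with the mean of probe sets and 16 with only the arrays compared. Of all genes 10.2% and 2.54% were then called, in place of 14.4%. For the difference of the 24 h and 48 h changes (0 called) it was 29 with array weights, with 3.18% of all genes called in place of 0%. That difference was not fitted with fewer groups, since it needs all 4. With each array left out in turn the counts were 0 to 46 at 24 h, 1 to 4 at 48 h, 47 to 50 for time in control cells, 13 to 49 for time in siLsd1 cells and 0 to 16 for the difference. Each highest count came without siLsd1 48 h replicate 3. In the same order 25.5%, 18.1%, 40.4%, 38.3% and 1.47% of all genes were then called. With all arrays those shares were 5.39%, 12.7%, 24.2%, 14.4% and 0%. The lowest 48 h count came without siC 48 h replicate 1 or 3, with 3.58% and 4.1% of all genes called. The lowest counts at 24 h and in time came from fits with a single array in a 24 h group. Fewer of all genes were then called too. With quantile normalization the 24 h calls among the 51 were 1 higher and 6 lower, and 5.53% of all genes were called in either direction. Over the single genes, 1 change took the other sign and was called there, that of Ncapd2 at 48 h, −0.30 with array weights (adjusted p 0.0307); other changes took the other sign without a call as well, 22 of 51 at 48 h without siLsd1 replicate 3.

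With a replicate block by number limma called 17 of the 51 at 24 h (in place of 10), 3 at 48 h, 48 and 47 for time in control and siLsd1 cells and 0 for the difference. In the same order 4.98%, 14.7%, 27.1%, 16.2% and 0% of all genes were called. The deviations of same-numbered siC and siLsd1 arrays correlated at −0.07 at 24 h and at −0.19, 0.05 and −0.06 at 48 h, so the numbers were taken as names.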
